A study of Homo sapiens with 5 samples.

Results

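H3K4me3 peaks of promoter size that met RUNX1 were analysed in MOLT-4 cells, a human T cell leukaemia line. Members were H3K4me3 peaks on chromosomes 1 to 22 and X, at least 1 and under 2.5 kb wide (end minus start), that shared 1 bp or more with a RUNX1 peak in hg19. They numbered 5543 of 13181 H3K4me3 peaks. They were selected on 2 measured values, the width of the H3K4me3 peak and its overlap with RUNX1, so widths, RUNX1 counts and RUNX1 placement are given as descriptions without tests. The width is that of many promoters, but no gene annotation of hg19 was used here, so whether a member lies at a promoter was not checked and regions are named by position.

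The series used CUT&RUN, in which an antibody guides a nuclease fused to protein A/G to its target and the released fragments are sequenced. The labels give 5 samples of MOLT-4 cells, with no treatment arm besides the antibody: H3K4me3, RUNX1, a target written SMA4, and 2 controls with IgG titled as input, 1 of them for H3K4me3. Peak lists of the H3K4me3, RUNX1 and SMA4 libraries were analysed, 1 library each, and no IgG list was used here. What SMA4 abbreviates is not spelled out in the labels, and the name is kept as given. All samples come from a single cell line, and with 1 library per antibody no value has a replicate check. The tests compare peaks of single lists and treat them as independent, and their intervals cover counting error only.

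H3K4me3 is trimethylation of histone H3 at lysine 4, written by SET1 and MLL methyltransferase complexes on the nucleosomes that flank active and poised transcription start sites. The start site itself usually lies in a nucleosome-depleted stretch, where transcription factors reach the DNA. RUNX1 binds DNA through its runt domain together with CBFB and is needed in blood stem cells and in developing T cells. In T cell leukaemia it is known to occupy promoters and enhancers, often beside TAL1, GATA3 and ETS factors.

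The deposited peak lists hold positions only, so read depth and peak height are unknown. The lists held 13199 H3K4me3, 36777 RUNX1 and 1479 SMA4 peaks, of which 13181, 36736 and 1475 lay on the chromosomes used. Per the file headers, SMA4 was processed in another batch and with another pipeline than the other lists, and these cannot be told apart from the target. Neighbouring RUNX1 peaks in the list were always over 100 bp apart, and 2 RUNX1 peaks in a member are therefore separated by at least that much.

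Nearly every H3K4me3 peak of this width met RUNX1. Of 5590 such peaks, 5543 did (99.2%), against 88.1% of all H3K4me3 peaks, a share on which the rule rests. The smallest overlap of a member was 146 bp and the next 158 bp, so no member was included through a few shared bases. The 47 peaks of the same width without RUNX1 had a median width of 1177 bp. Their nearest RUNX1 peak lay between 0 bp (abutting) and 396431 bp away, with a median of 6475 bp, and 11 of them had one within 1 kb. The values on either side of the width bounds were as follows. Of 287 H3K4me3 peaks in the 50 bp of width below 1 kb, 97.6% met RUNX1, and of 316 peaks in the 50 bp from 1 kb upward, 97.5%. All 62 peaks in the last 50 bp below 2.5 kb and all 59 in the first 50 bp from there met RUNX1, with 2 or more RUNX1 peaks in 24.2% and 30.5% of them. At the lower bound 2 or more RUNX1 peaks were found in 12 of 280 peaks with RUNX1 below it (4.29%) and in 8 of 308 above it (2.60%). SMA4 met 7 of the 280 and 7 of the 308 at the lower bound, and 7 of 62 (11.3%) below and 2 of 59 (3.39%) above the upper bound.

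Most members held a single RUNX1 peak. Exactly 1 RUNX1 peak met 4860 members (87.7%, 95% Wilson interval 86.8 to 88.5%), 2 met 637 (11.5%, 10.7 to 12.4%), 3 met 45 and 4 met 1. Members with 2 or more thus numbered 683 (12.3%, 11.5 to 13.2%), where all 11616 H3K4me3 peaks with RUNX1 gave 9.15%. Among the 5417 narrower H3K4me3 peaks with RUNX1 the share was 1.61%, and among the 656 wider ones it was 44.7%. It also climbed with width inside the class. In 6 classes of 250 bp it was 5.03% (74 of 1471) from 1 kb, 9.53% from 1.25 kb, 12.1% from 1.5 kb, 16.6% from 1.75 kb, 21.6% from 2 kb and 29.0% (108 of 373) from 2.25 kb. A longer mark offers more bases to meet several peaks, and the part of length in this rise was not tested. The median width was 1459 bp with 1 RUNX1 peak (quartiles 1216 and 1798 bp) and 1790 bp with 2 or more (1446 and 2106 bp). Covered bases and SMA4 overlap are therefore also compared by width class, while placement, edges and neighbours are not. The count rests on how close peaks are joined. When RUNX1 peaks closer than 200 bp were merged, 377 members had 2 or more in place of 683.

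A single RUNX1 peak usually covered the centre of the mark. The midpoint of the H3K4me3 peak lay inside RUNX1 in 4386 of 4860 such members (90.2%, 89.4 to 91.0%). The midpoints of the 2 peaks were 190 bp apart at the median (quartiles 92 and 325 bp), within 250 bp in 62.2% and over 500 bp apart in 8.29%. Read along the mark, RUNX1 was present in 43.7% of these members at 2.5% of the width, in 74.1% at 22.5%, and in 90.4% at 47.5%. It fell to 43.9% at 97.5% of the width, with positions read by genome coordinate without strand. The middle 10% of the mark was covered over at least 50% of its length in 90.2% of members, and an outer 10% in 48.1% of the 9720 ends. Neither end was covered in this sense in 1119 members, both ends in 19.2%, and in 5.37% RUNX1 held an end and left the middle 10% free.

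**Figure D1:**
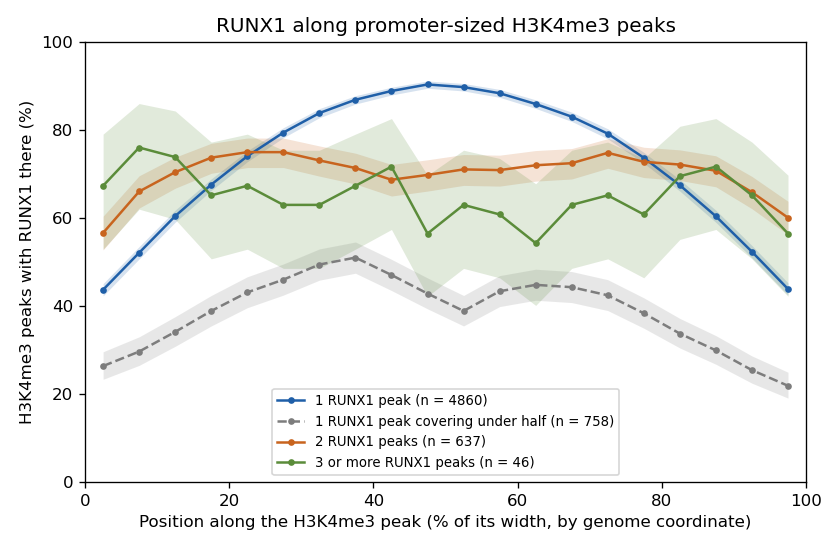
Percentage of members with a RUNX1 peak at 20 points along the H3K4me3 peak (x axis: position in percent of its width, by genome coordinate). Lines stand for members with 1, 2 and 3 or more RUNX1 peaks, the dashed line for members whose single RUNX1 peak covers under 50% of the mark, and bands for 95% Wilson intervals. Single peaks rise from 43.7% at the left end to 90.4% near the centre, while members with 2 peaks go from 56.7% at the left end to 75.04% at 22.5% of the width and 68.8% at 42.5%.

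A single peak that covers more than 50% of the mark includes its midpoint by geometry, and 84.4% of the single peaks covered more than 50%. In the other 758 members (15.6%) the single RUNX1 peak covered less, and geometry again set part of the placement. RUNX1 crossed an edge of the mark in 323 of them (42.6%), and a peak that enters from an edge and covers under 50% cannot reach the midpoint. It lay wholly inside the mark in the other 435, where it could lie on either side of the midpoint or over it. Of these 435, 284 had RUNX1 at the midpoint of the mark (65.3%, 60.7 to 69.6%), and 57.2% of the RUNX1 peaks were centred in the middle 33.3% of the mark. Length matters here too, because a longer peak inside the mark reaches the midpoint from more placements. The shares that length alone would give were not computed, so no preference for the centre is read from these values. Over all 758, RUNX1 was present in 51.1% at 37.5% of the width, in 38.9% (35.5 to 42.4%) at 52.5% and in 43.4% at 57.5%, a profile that mixes both kinds.

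Single RUNX1 peaks often ran past an edge of the mark. The single RUNX1 peak crossed 1 edge in 2573 members (52.9%), both edges in 559 (11.5%) and neither in 1728 (35.6%). Its width was 1220 bp at the median (quartiles 934 and 1563 bp), or 0.817 of the width of the mark (quartiles 0.625 and 1.03), and 28.5% of the single RUNX1 peaks were wider than the mark they met. Even so, the bases outside the mark were few, with a median of 5.75% of the RUNX1 peak (upper quartile 18.6%). Across the 4860 members the widths of the 2 peaks had a Spearman's rho of 0.37, given as a description over sites that share the same 2 libraries.

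The widest RUNX1 peaks at members ran far beyond them. A RUNX1 peak of 8415 bp at chr17:56409543-56417957 met 6 H3K4me3 peaks, of which the member at chr17:56415950-56417769 (1820 bp) shared the most bases with it among members. One of 7615 bp at chr1:199141281-199148895 met 3 H3K4me3 peaks and covered the member at chr1:199146572-199148070. One of 6197 bp at chr14:100530942-100537138 met 4, with the member at chr14:100531967-100533321 inside it. The other two of the 5 widest measured 5778 bp, over the member at chr16:85646937-85648580, and 5189 bp, over part of the member at chr3:196358947-196361137. Of these 5 members, 4 were covered entirely, the last one over 79.9% of its length, and none met SMA4.

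At the other extreme, narrow RUNX1 peaks touched wide marks. The least covered member, at chr12:54810952-54813413 (2462 bp), had 5.93% of its length in a RUNX1 peak that reached 103 bp past its left edge. The member at chr10:89623972-89626357 (2386 bp) had 10.9% in a RUNX1 peak of 261 bp that began 84 bp from the left edge. Those at chr6:27439307-27441461, chr7:117232202-117234204 and chr12:42719098-42720946 had 11.1%, 11.5% and 12.8% in RUNX1 peaks of 240, 230 and 236 bp. These RUNX1 peaks were close to the narrowest in the list, 221 bp. The RUNX1 peak lay wholly left of the midpoint of the mark in 4 of the 5 and wholly right of it in 1.

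In members with 2 RUNX1 peaks the midpoints of the pair mostly fell on either side of the centre, while the centre itself was usually covered. The midpoints of the 2 peaks fell on opposite sides of the midpoint of the mark in 588 of 637 (92.3%, 89.98 to 94.1%). Separate peaks that together covered 72.4% of the mark at the median have little room on 1 side, so geometry sets part of this share. The midpoint of the mark lay inside RUNX1 in 456 (71.6%, 68.0 to 74.95%) and in the gap between the peaks in 172 (27.0%). Along the mark RUNX1 was present in 56.7% at 2.5% of the width, in 75.04% at 22.5% and in 68.8% at 42.5%. Taking all 683 members with 2 or more peaks, the middle 10% was covered in 70.7% (67.2 to 74.0%) and an outer 10% in 63.0% of the ends. The corresponding values for single peaks were 90.2% and 48.1%. Some of this follows from the definition, because 2 peaks within a mark must leave a gap inside it. RUNX1 crossed both edges in 26.9% of these members against 11.5% with 1 peak, and it held an end while leaving the middle 10% free in 14.1% against 5.37%.

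The pair was usually unequal, a broad peak with a narrow one. The wider peak had a median of 1023 bp (quartiles 771 and 1327 bp) and the narrower 367 bp (256 and 561 bp), a median ratio of 2.498. The wider peak was nearer the midpoint of the mark in 396 of the 636 members with unequal widths (62.3%, 58.4 to 65.9%). Widths and midpoints here are those of whole RUNX1 peaks, with any part outside the mark. Where 2 peaks fill most of a mark, geometry puts the wider one nearer its midpoint, so no preference is read from this share. In members with 2 or more peaks, 11.6% held a RUNX1 peak of 221 bp, the minimum of the list, against 0.123% of members with 1. The midpoints of the pair were 994 bp apart at the median (818.5 and 1229.5 bp).

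The gap between paired RUNX1 peaks was short. Its median was 220 bp (quartiles 145 and 335 bp), and the longest was 1237 bp. Gaps up to 150 bp made up 29.0% of the 637, those over 150 and up to 250 bp 29.7%, those over 250 and up to 500 bp 28.9%, and those over 500 bp 12.4%. The midpoint of the gap lay 246 bp from the midpoint of the mark at the median, and in the middle 33.3% of the mark in 353 (55.4%, 51.5 to 59.2%). Longer gaps were more central. A long gap has little room to lie off centre, and how much of the difference this gives was not tested. The share in the middle 33.3% was 50.3% for gaps up to 150 bp, 53.4% and 56.5% for the next classes, and 69.6% (55 of 79) for those over 500 bp. In the longest class RUNX1 covered 54.3% of the mark at the median, against 79.7% in the shortest.

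**Figure D2:**
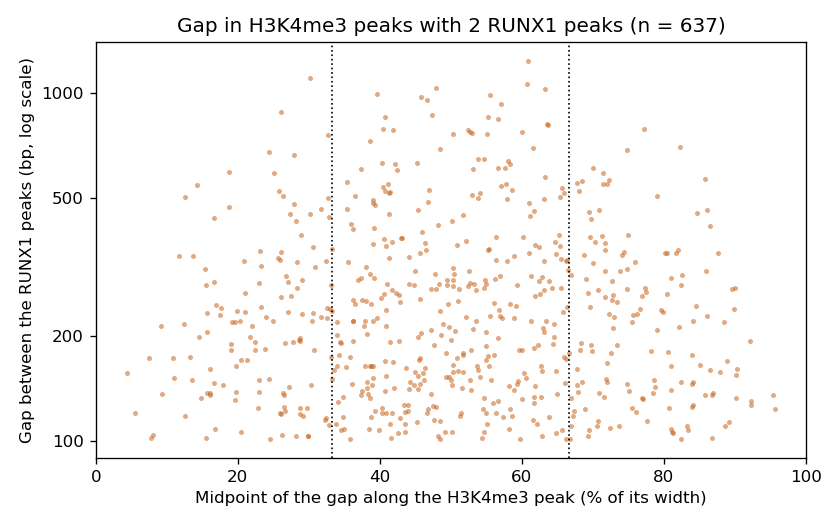
Gap between the RUNX1 peaks in the 637 members with 2 of them (y axis: bp, log scale) against the position of its midpoint along the H3K4me3 peak (x axis: percent of the width). Points are members and dotted lines bound the middle 33.3%, which holds 353 of them. Gaps of over 500 bp are sparse outside those lines, where 24 of 79 lie.

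The 5 longest gaps held the midpoint of the mark, and RUNX1 covered between 22.8% and 52.6% of these members. In the member at chr12:118813843-118816018 (2176 bp) RUNX1 peaks of 785 and 275 bp crossed the left and the right edge, with 1237 bp between them. The member at chr17:1301540-1303859 had a gap of 1221 bp between RUNX1 peaks of 379 and 243 bp, with another of 363 bp near the right edge. The member at chr1:183603049-183605385 had 1108 bp between peaks of 411 and 1267 bp that crossed its edges by 260 and 189 bp. The member at chr2:95690851-95693270 held RUNX1 peaks of 272 and 326 bp, 1064 bp apart, which together covered 24.7% of it. At chr11:36589775-36591114 (1340 bp) a RUNX1 peak of 1936 bp entered from the left and one of 221 bp crossed the right edge, 1035 bp apart. None of these 5 members had RUNX1 at the midpoint of the mark, and none met SMA4.

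The member with the most RUNX1 peaks, 4 in 2078 bp, lay at chr20:43298479-43300556. Its RUNX1 peaks measured 352, 221, 377 and 334 bp and began 208, 704, 1207 and 1787 bp from the left edge, so they were spread over the whole mark and together covered 59.7% of it. The widest members with 3 RUNX1 peaks were those at chr5:56110435-56112922 (634, 284 and 931 bp), chr3:176912878-176915335 (369, 222 and 3396 bp), chr13:33000384-33002833 (548, 933 and 508 bp) and chr19:4909306-4911754 (1202, 336 and 656 bp). Next came chr9:79791795-79794227, chr22:36782173-36784601, chr3:50273119-50275535, chr6:128220013-128222418 and chr4:129207677-129210080. RUNX1 covered between 58.0% and 84.1% of these 10 members. It reached past an edge in 9 of them and lay over the midpoint of the mark in 5. Of all 46 members with 3 or more peaks, 26 had RUNX1 at the midpoint (56.5%, 42.2 to 69.8%).

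RUNX1 covered a similar share of the mark whether it came as 1 peak or several. The covered share was 74.4% at the median with 1 peak (quartiles 57.3 and 90.6%) and 71.8% with 2 or more (59.8 and 82.7%). In bases, the medians were 1075 bp (interval 1062 to 1085 bp) and 1220 bp (1184 to 1258 bp), in marks that were also wider. Within classes of width the bases were close, at 874 and 835.5 bp from 1 kb, 1023 and 1038.5 bp from 1.25 kb, 1208.5 and 1213 bp from 1.5 kb, 1308.5 and 1342 bp from 1.75 kb, 1493 and 1446 bp from 2 kb, and 1615 and 1656.5 bp from 2.25 kb. The spread differed more than the middle. Full coverage was found in 568 members with 1 peak (11.7%) and cannot occur with 2, which leave a gap, while under 25% was covered in 1.69% with 1 peak and 0.586% with 2 or more. Between 95 and 100% of the mark was covered in 18.9% and 0.439% of the 2 groups. Across all member bases, 8.67 Mb, RUNX1 peaks took 71.8%, compared with 83.9% in narrower and 70.3% in wider H3K4me3 peaks with RUNX1.

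**Figure D3:**
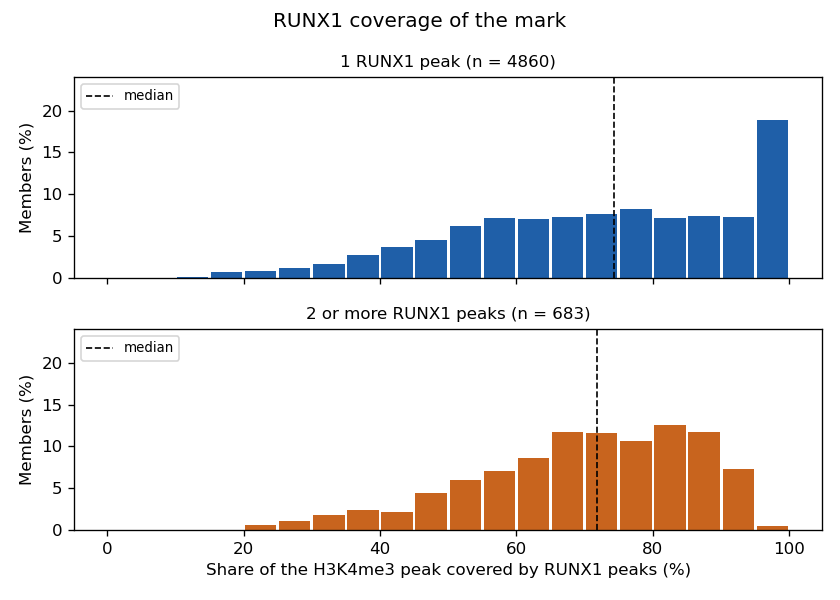
Share of each H3K4me3 peak covered by RUNX1 peaks (x axis: percent, in steps of 5) for members with 1 (top) and with 2 or more RUNX1 peaks (bottom), as a percentage of members (y axis). Dashed lines mark the medians, 74.4% and 71.8%, which are close, while 18.9% of members with 1 peak and 0.439% with 2 or more stand at 95 to 100%.

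RUNX1 peaks at members were broad compared with the rest of that list. The 6243 RUNX1 peaks at members had a median width of 1121 bp, beside 879 bp for the 5603 at other H3K4me3 peaks only and 527 bp for the 24890 at none. A wider RUNX1 peak meets a mark more easily, so the overlap rule can give part of this order, and that part was not tested. In all, 32.2% of RUNX1 peaks met the mark. The 1412 RUNX1 peaks at members with 2 or more were narrower, with a median of 631 bp, than the 4839 at members with 1, with a median of 1218 bp. A RUNX1 peak that also met another H3K4me3 peak was found at 261 members with 1 peak (5.37%) and at 73 with 2 or more (10.7%, 8.59 to 13.2%). Another H3K4me3 peak lay within 1 kb of 13.8% of members with 1 RUNX1 peak and of 20.2% (17.4 to 23.4%) with 2 or more. A further RUNX1 peak lay outside the mark within 5 kb of 23.8% and 28.1% of them. The nearest other H3K4me3 peak was 29.5 and 31.0 kb away at the median.

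SMA4 was not used to choose members or to count their RUNX1 peaks, and its overlap was the readout that could be tested. SMA4 met 154 of 5543 members (2.78%, 2.38 to 3.24%), against 315 of all 13181 H3K4me3 peaks (2.39%). These shares were close, but the 315 include the 154, so that background is not independent of the members. SMA4 met 140 of 4860 members with 1 RUNX1 peak (2.88%, 2.45 to 3.39%) and 14 of 683 with 2 or more (2.05%, 1.22 to 3.41%). The difference of -0.831 percentage points (interval -1.80 to 0.598) did not pass Fisher's exact test (two-sided, odds ratio 0.706, 95% interval 0.374 to 1.23, p = 0.26, adjusted p = 0.26 over 3 tests). With width taken into account in 6 strata the Mantel-Haenszel odds ratio was 0.582 (0.327 to 1.04, chi-square test, p = 0.087). These intervals hold both no difference and odds well under those of single peaks, and 14 members are few. When an overlap had to span at least 50% of the shorter peak, Fisher's exact test gave an odds ratio of 0.432 (unadjusted p = 0.026), past the threshold of 0.05, so the call depends on how overlap is counted.

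SMA4 overlap moved with the width of the mark. Members met SMA4 more often than narrower H3K4me3 peaks with RUNX1, of which 108 of 5417 did (1.99%; odds ratio 1.40, 1.09 to 1.82, Fisher's exact test, adjusted p = 0.011), and less often than the 656 wider ones, of which 45 did (6.86%; odds ratio 2.58 for the wider class, 1.79 to 3.66, adjusted p = 1.48e-06). A wider mark offers more bases to meet a peak, and the part of length in this was not tested. Inside the class, members in the 250 bp from 1 kb met SMA4 in 2.45% and those in the 250 bp from 2.25 kb in 5.36% (3.50 to 8.14%). With 1 RUNX1 peak the shares by width were 2.58%, 2.22%, 2.70%, 3.47%, 3.93% and 4.91%. With 2 or more they were 0 of 74, which allows up to 4.05%, then 0.781%, 2.46%, 1.52%, 0.840% and 6.48%. They were the lower of the 2 in each class but the widest, where 7 of 108 met SMA4 against 13 of 265, and the intervals overlapped in every class.

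**Figure D4:**
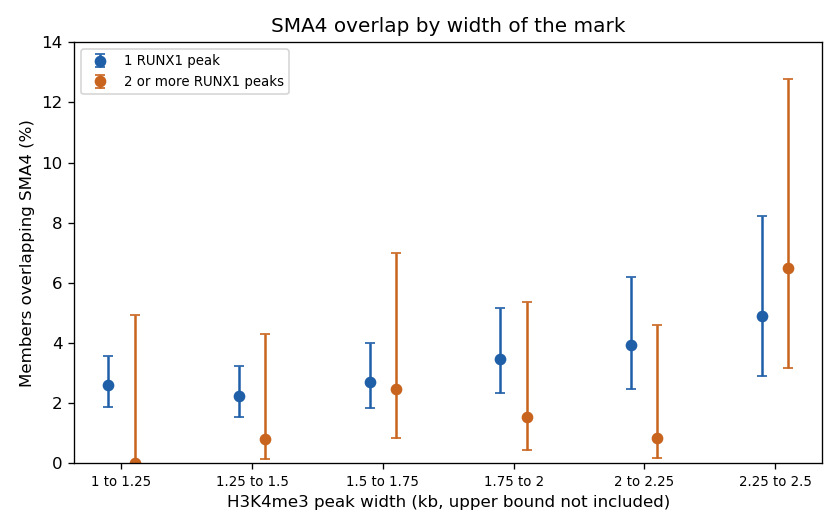
Percentage of members overlapping SMA4 (y axis) in 6 classes of H3K4me3 width (x axis, kb), with 1 and with 2 or more RUNX1 peaks. Points are shares of members and bars 95% Wilson intervals, which overlap between the 2 groups in each class. Shares with 1 RUNX1 peak go from 2.58% in the narrowest to 4.91% in the widest class.

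Where SMA4 and RUNX1 peaks lay within members is given as a description. The 154 members held 157 SMA4 peaks of 209 bp at the median, 151 members with 1 and 3 with 2. The midpoint of 152 of the 157 (96.8%, 92.8 to 98.6%) was inside a RUNX1 peak of the same member, and 155 shared at least 1 bp with one. Of all SMA4 peaks, 65.9% overlap RUNX1, but every member was chosen to hold RUNX1, which takes 71.8% of member bases, so the share at members is set in part by the rule and nothing is read from it. No SMA4 midpoint fell in a gap between RUNX1 peaks, but only 14 of the SMA4 peaks lay at members with such a gap. Within the mark, 59 midpoints were in the middle 33.3% (37.6%, 30.4 to 45.4%), 94 in the outer parts and 4 outside the mark. Of the 157 SMA4 peaks, 144 lay wholly inside the mark. The mark was 1632.5 bp wide at the median in members with SMA4 (interval 1500 to 1731 bp) against 1489 bp without, and their widest RUNX1 peak measured 1304 bp (1224 to 1427 bp) against 1190 bp. In 4 equal classes of RUNX1 coverage, from low to high, SMA4 met 2.81%, 2.16%, 2.38% and 3.75% of members.

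The 3 members with 2 SMA4 peaks each held a single RUNX1 peak. At chr12:62653225-62655296 a RUNX1 peak of 2134 bp covered 90.6% of the mark and contained SMA4 peaks of 185 and 168 bp, 708 and 1486 bp from the left edge. At chr18:23669441-23671013 a RUNX1 peak of 1960 bp covered the whole mark, with SMA4 peaks of 166 and 193 bp. At chrX:48858007-48859106 a RUNX1 peak of 1028 bp covered 92.0%, with SMA4 peaks of 144 and 252 bp, the first of them starting before the RUNX1 peak. The widest members with 1 SMA4 peak were at chr7:139024616-139027113, where SMA4 took 433 bp, at chr5:56110435-56112922, whose second of 3 RUNX1 peaks ended at the same base as the SMA4 peak (56111622), and at chr9:6756816-6759303. At chr22:38900631-38903116 RUNX1 covered 35.8% of the mark, and the SMA4 peak of 415 bp lay wholly within that part. At chr3:151961149-151963634 the SMA4 peak of 171 bp began at 151962140 and the second RUNX1 peak ended at 151962146, so they shared 7 bp. At chr2:152144556-152147025 SMA4 overlapped the narrower of 2 RUNX1 peaks, 252 against 967 bp.

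Members were spread over all chromosomes much as the H3K4me3 list was. They made up between 32.9% (chromosome 22) and 47.0% (chromosome 14) of the H3K4me3 peaks of a chromosome. Their density, per Mb up to the last peak of any list, was highest on chromosomes 19 and 17, at 6.69 and 4.24 per Mb, and lowest on chromosomes X and 13, at 0.962 and 0.964 per Mb. Members with 2 or more RUNX1 peaks made up 12.3% of all members, and the interval of 20 of 23 chromosomes held that value. The exceptions were chromosome 18 with 19 of 87 (21.8%, 14.5 to 31.6%) and chromosome X with 27 of 149 (18.1%, 12.8 to 25.1%), both above, and chromosome 19 with 33 of 395 (8.35%, 6.01 to 11.5%), below. With RUNX1 peaks closer than 200 bp merged, the shares were 11.5% on chromosome 18, 12.8% on X and 5.32% on 19, and chromosome 21 was lowest at 3.45%. Merging also lowered the share over all members, to 377 of 5543, so these values are not to be set beside 12.3%. Members on chromosome 19 were narrower, with a median of 1377 bp, and on chromosome 18 wider, with 1588 bp, and the share with 2 or more RUNX1 peaks moves with width; its part in these values was not tested. On chromosome X the median width was 1453 bp, beside 1491 bp for all members. RUNX1 coverage was lowest there, with a median of 61.3% of the mark, and highest on chromosome 21 with 85.6%. SMA4 met 12 of the 739 members on chromosomes 17 and 19, and by chromosome its share went from 0.546% (1 of 183, chromosome 15) to 5.79% (15 of 259, chromosome 7).

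**Figure D5:**
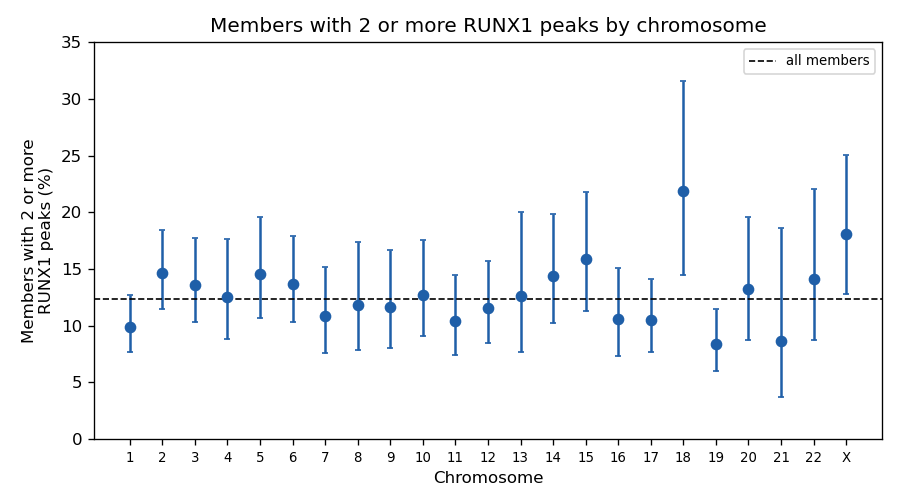
Percentage of members with 2 or more RUNX1 peaks (y axis) on each of 23 chromosomes (x axis). Points are shares, bars 95% Wilson intervals and the dashed line the share of all members, 12.3%. Chromosomes 18 and X lie above the line and chromosome 19 below it, with intervals that leave it out.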

How the data were processed

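The authors deposited 1 list of peaks per library with 4 columns (chromosome, start, end, peak name) and no score, so positions in bases were the only measurement. Per the file headers, H3K4me3 and RUNX1 peaks came from MACS2 in a folder named batch2, and SMA4 peaks from cutruntools at a q-value threshold of 0.01 in a folder named batch3. Per the submitters' processing notes, MACS2, SEACR and hg19 were used. Neither the aligner nor versions or other thresholds are stated by any source used here. A gene annotation or genome of hg19 was not used here, so no gene or sequence is given.

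Peaks on chromosomes 1 to 22 and X were intersected (minimum 1 bp) in Python 3.11.15 with pandas 2.3.3 and scipy 1.17.1, and overlap counts were checked against bedtools 2.31.1. Positions are printed 1-based. Shares have 95% Wilson intervals, medians exact order-statistic intervals, and differences of shares intervals built from the Wilson bounds. Fisher's exact test, two-sided and with Benjamini-Hochberg adjustment over 3 tests, was used for SMA4 overlap, with the Mantel-Haenszel method in statsmodels 0.14.6. Scripts were tested on simulated peaks. Members and lists were chosen with earlier results of these data known. Regions were named by fixed rules: the 10 members with most RUNX1 peaks, the 10 with most SMA4 peaks (ties by width), the 5 with the widest gaps, those at the 5 widest RUNX1 peaks and the 5 single-peak members least covered. Gene lists fixed with them could not be used.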

Additional observations from a re-analysis of the deposited data

How the results depend on the processing

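Of 45 alternative values for the comparisons, 34 counted as unchanged and 0 reversed. Unchanged tests kept their direction and their side of the threshold, and unchanged shares and medians stayed within the interval of the value reported. Counts of members, which have no interval, were unchanged if their ratio to the value reported stayed within a fixed bound. The odds ratio of SMA4 for 2 or more against 1 RUNX1 peak ranged from 0.432 to 0.862. Fisher's exact test passed the threshold (unadjusted p = 0.026) when overlaps had to span at least 50% of the shorter peak. That rule also left 558 members with 2 or more RUNX1 peaks. Merging RUNX1 peaks closer than 200 bp left 377, with chromosome shares from 3.45 to 12.8%. A width of 1.25 to under 2 kb left 2765 members with 1 and 382 with 2 or more, which follows from its narrower bounds, and gave 91.1% for the middle 10% and 46.6% for the ends with 1 RUNX1 peak. The outermost 100 bp were covered in 45.3% of ends with 1 and 59.1% with 2 or more. Members sharing no RUNX1 peak with another H3K4me3 peak, an alternative chosen after seeing the data, gave 46.8% of ends with 1. On single chromosomes, the share with 2 or more left its interval on 21 of 23 after merging. The lists give no depth, so peaks missed for lack of reads cannot be told from absent ones. No paired analysis was possible because each antibody has 1 library.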
